A study of Oryzias latipes with 18 samples.

Results

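Testes of medaka (Oryzias latipes, a small freshwater fish) of 2 lineages were compared after both had been exposed to 0.002 mg/L perfluorooctane sulfonate (PFOS) for 21 days. The BPA lineage descends from fish that met 10 ug/L bisphenol A (BPA) as embryos, 4 generations before the PFOS exposure, and the control lineage has no such ancestors. The comparison takes in 6 of the 18 testis RNA-seq libraries of the series, 3 per lineage, and all 6 come from fish given PFOS at this dose. It asks whether the testis RNA of the 2 lineages differed when both carry the lower PFOS dose. The labels name no replicate lineages, so the ancestral exposure and any other difference between the 2 lineages cannot be told apart. The labels give no strain, age or number of fish per library. The library labelled control lineage replicate 2 carries egg-coat and oocyte RNA at a level none of the others has, so results are given first without it, from 3 BPA and 2 control libraries, and then with it.

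PFOS is a fluorinated surfactant that binds proteins and stays in the body for long periods, and BPA is a plastics monomer that can bind estrogen receptors. In the fish testis, Sertoli cells enclose cysts of germ cells that develop together from spermatogonia through meiosis to flagellated sperm, while Leydig cells between the cysts make steroid hormones. Bulk RNA of a testis is dominated by germ cells, and fewer cells of a type and less RNA per cell cannot be told apart in it.

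Recovered reads of the 6 libraries ranged from 27.4 to 33.3 M. On the log2 scale, the BPA libraries correlated with each other at 0.967 to 0.971 across genes, and the same libraries correlated with control replicate 1 at 0.963 to 0.966. Control replicate 3 stood a little farther off, at 0.943 to 0.947 with the BPA libraries and 0.957 with control replicate 1. Control replicate 2 correlated with the other 5 at 0.771 to 0.781. Its normalized reads were 139396 for zp3f.2, an egg-coat protein gene, against 0.761 to 54.4 in the other 5. For bmp15, an oocyte growth factor gene, they were 21627 against 6.33 to 34.3. The male-determining gene dmy had 1465, 1675 and 4133 normalized reads in the BPA libraries, 2299 and 3287 in control replicates 1 and 3, and 489 in control replicate 2. The oocyte and egg-coat list stood 7.65 above its median over the 18 libraries in control replicate 2, on the log2 scale, and the spermatid and flagellum list stood at -2.43 there. In the other 17 libraries the same lists ran from -0.80 to 2.0 and from -0.28 to 0.47.

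Without control replicate 2, no gene separated the lineages at 0.002 mg/L after correction in the 17-library limma fit or in edgeR. limma, fitted to 17 libraries over 18792 genes, called 0 genes (0%) at an adjusted p below 0.05, and its smallest adjusted p was 0.214. At an unadjusted p below 0.05 it had 1583 genes, 8.42% of those tested. edgeR's quasi-likelihood test on the recovered reads also called 0 genes, with 1472 at an unadjusted p below 0.05. DESeq2 on the same reads called 106 genes, 0.567% of those it gave an unadjusted p. Of the 106, 71 were higher and 35 lower in the BPA lineage. A limma fit restricted to the 5 libraries called 29 genes (0.154%), 18 higher and 11 lower. With control replicate 1 also left out, 57 genes were called, 55 of them higher in the BPA lineage, and without control replicate 3 there were 5, all higher.

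The median log2 difference of all genes was -0.02, with the BPA lineage minus the control lineage, and 47.6% of genes had a positive difference. The median standard error of a gene was 0.38 on that scale. A 95% interval lay wholly within a change of 1 log2 unit either way for 8148 genes, 43.4% of those tested, and for 54.7% of the 14869 genes with a mean of at least 50 normalized reads. For the remaining genes the interval reached beyond 1 log2 unit. All 3 BPA libraries lay above both control libraries for 14.5% of genes and below both for 18.8%.

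The 8 named genes with the smallest p toward higher values in the BPA lineage are given as not passing, at a limma adjusted p of 0.214 each. gpr1, a G protein-coupled receptor that binds the adipokine chemerin in mammals, had 850, 700 and 1061 normalized reads in the BPA libraries. Control replicates 1 and 3 had 109 and 54.4, and replicate 2 had 107, so the 3 BPA libraries lay far above all 3 control libraries. The log2 difference was 3.46 ± 0.72 (SE). arrb1, which encodes a beta-arrestin that uncouples such receptors from their G proteins, had 142, 140 and 188 in the BPA libraries against 7.03 and 41.0 in the controls, a log2 difference of 3.09 ± 0.62 (SE). Control replicate 2 had 20.3, again below the BPA range. c7b, a gene of the complement membrane attack complex, had 324, 283 and 220 against 43.6 and 28.5, and 72.9 in control replicate 2. prkag3b, a regulatory subunit of the energy sensor AMP-activated protein kinase, had 236, 239 and 198 against 33.0 and 33.5, and 122 in control replicate 2. For both genes the lineages did not overlap in either set of libraries, and the log2 differences were 2.92 ± 0.67 and 2.71 ± 0.58 (SE).

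etv7, an ETS family transcription factor gene, had 644, 1179 and 751 normalized reads in the BPA libraries and 190 and 312 in the controls, a log2 difference of 1.76 ± 0.34 (SE). Control replicate 2 had 493, which was also below the BPA range. pdgfra encodes a receptor for platelet-derived growth factor that marks connective tissue cells. It had 216, 313 and 326 in the BPA libraries against 108 and 97.1, with 52.7 in control replicate 2, and the log2 difference was 1.44 ± 0.32 (SE). The remaining 2 genes, zgc:162396 and si:ch211-122f10.4, differed by 2.24 ± 0.45 and 1.07 ± 0.24 (SE) on the log2 scale without control replicate 2. That library had 2174 normalized reads of zgc:162396, against 160 to 204 in the BPA libraries. It also exceeded every BPA library for si:ch211-122f10.4, at 3534 against 1337 to 1696. In other libraries, at 0.02 mg/L, the log2 lineage differences were 2.04 (gpr1), 1.33 (zgc:162396), 1.28 (arrb1) and 1.23 (c7b). They were 0.96 (prkag3b), 0.44 (si:ch211-122f10.4), 0.41 (etv7) and 0.15 (pdgfra), and the limma adjusted p at that dose ran from 0.251 to 0.872.

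Among the 8 genes with the smallest p toward lower values, the limma adjusted p ran from 0.214 to 0.274. COL14A1, a collagen that associates with fibrils, had 115, 558 and 157 normalized reads in the BPA libraries and 2304 and 3131 in control replicates 1 and 3, a log2 difference of -3.63 ± 0.74 (SE). Control replicate 2 had 316, inside the BPA range. dusp2, a phosphatase gene induced early by MAP kinase signalling, had 47.2, 24.4 and 6.52 against 309 and 157, a log2 difference of -3.40 ± 0.82 (SE). Control replicate 2 had 4712, so the lineages did not overlap with it included. rtn4rl1b, of the Nogo receptor family, had 13.7, 12.2 and 20.2 against 114 and 54.4, and 259 in control replicate 2. pdik1l, a protein kinase gene, had 2354, 1050 and 1272 against 6366 and 3917, a log2 difference of -1.77 ± 0.41 (SE), and control replicate 2 fell inside the BPA range at 1985. At 0.02 mg/L, in other libraries, its log2 lineage difference was -1.89, and at 0 mg/L it was 0.08. At 0.02 mg/L the others of these 8 differed by 0.35 (COL14A1), -0.47 (dusp2), -1.42 (rtn4rl1b), 0.09 (sirt5), -0.05 (kctd14), -0.43 (c-myc17) and -0.11 (clic2).

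sirt5 encodes a mitochondrial enzyme that removes succinyl groups from proteins. It had 383, 448 and 407 normalized reads in the BPA libraries against 782 and 708, and 2290 in control replicate 2. The difference, -0.85 ± 0.22 (SE) on the log2 scale, was the smallest of these 8. kctd14 and c-myc17 differed by -0.98 ± 0.23 and -1.07 ± 0.27 (SE) and did not overlap between the lineages in either set of libraries. clic2, of the intracellular chloride channel family, differed by -1.62 ± 0.40 (SE), while control replicate 2 lay below all BPA libraries at 32.4 against 97.1 to 109. DESeq2 called all 16 of these genes, with adjusted p between 0.00209 and 0.0468, on the same libraries they were picked from. edgeR called 0 of them, at adjusted p of 0.369 to 0.429, and the limma fit restricted to the 5 libraries called 3. All 16 lay apart between 3 BPA and 2 control libraries (beside 14.5% of all genes above and 18.8% below). With control replicate 2 included, 11 of the 16 lay apart (beside 8.96% and 8.88%). That library carries oocyte RNA, and the part of this RNA in the count was not tested. The genes were picked by p in these same libraries, so their separation is no further support.

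**Figure D1:**
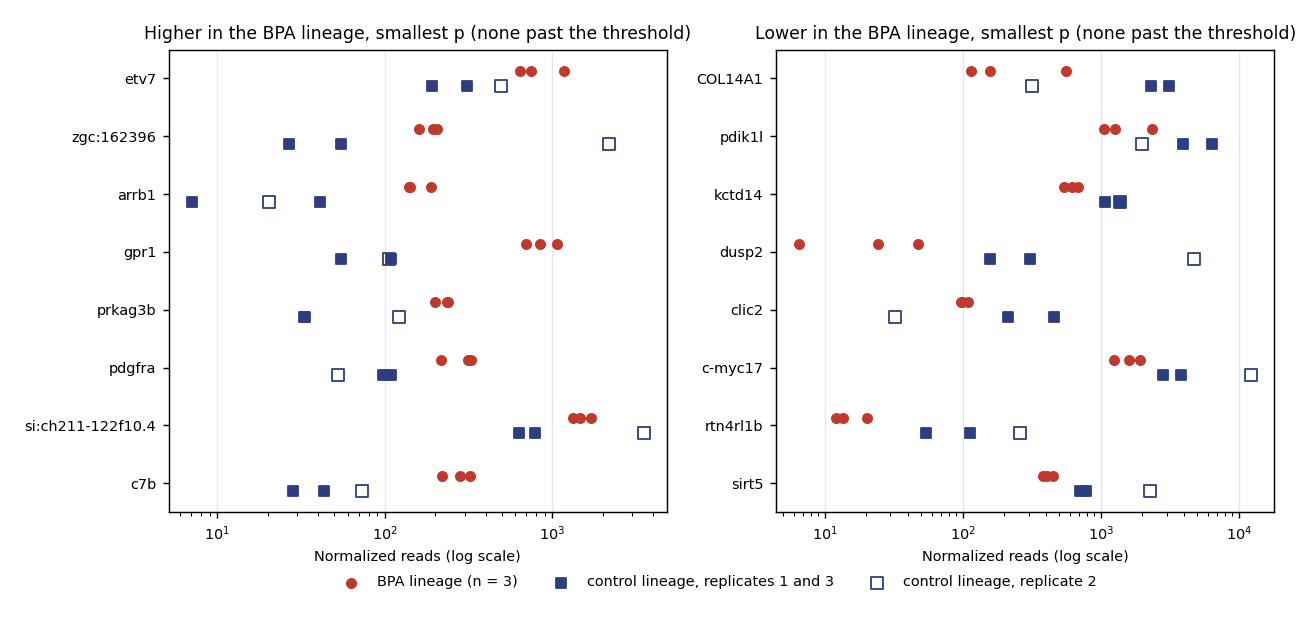
Normalized reads, on a log scale, of the 16 named genes with the smallest p, 8 in each direction, with 1 point per library at 0.002 mg/L. Circles are the 3 BPA lineage libraries, filled squares control replicates 1 and 3, and open squares control replicate 2. The filled symbols of the lineages do not overlap for any of the 16 genes, which were picked by p in these libraries. The open square falls on or beyond the BPA side for 5 of them, such as zgc:162396 and COL14A1.

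Genes of the Sertoli cell leaned toward higher values in the BPA lineage without passing the test. Of 17 genes tested, with amh counted under each of its 2 identifiers, 0 were called. Their median log2 difference was 0.58 beside -0.02 over all genes. The BPA libraries lay above both control libraries for 6 of the 17 (35.3%, beside 14.5% of all genes) and below both for 0 (beside 18.8%). dhh, the hedgehog ligand that Sertoli cells send to Leydig cells in mammals, had 536, 859 and 1535 normalized reads against 597 and 162, so the lineages overlapped. fshr, the receptor through which follicle-stimulating hormone acts on Sertoli cells, had 1925, 1518 and 2092 against 1470 and 621, and inha, an inhibin subunit gene, had 356, 449 and 648 against 387 and 137. The log2 differences of the 3 genes were 1.51 ± 0.58, 0.94 ± 0.38 and 1.02 ± 0.43 (SE), at limma adjusted p of 0.522 to 0.549. In each, control replicate 3 held the low value. The anti-Mullerian hormone gene amh stands in the table under 2 identifiers. ENSORLG00000005044 had a log2 difference of 0.57 ± 0.27 (SE), and the more abundant ENSORLG00000015951 one of -0.01 ± 0.29 (SE). gsdf, a growth factor gene of the same cells, had 24463, 36036 and 37066 against 31354 and 15527, and dmy and gsdf were chosen for their known roles after their values were seen.

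The level of a list in a library was taken as the mean over its genes of log2(value + 1) minus the median over the 18 libraries. For the Sertoli list it was -0.13, 0.07 and 0.45 in the BPA libraries, -0.25 in control replicate 1 and -0.98 in control replicate 3, the lowest of the 17. The 12 libraries at 0 and 0.02 mg/L ran from -0.41 to 0.77. Without control replicate 3 the median log2 difference of the Sertoli list was 0.22, and without control replicate 1 it was 0.94. Control replicate 3 was also the lowest of the 17 for the steroidogenic list, at -0.65, and stood at -1.27 for the 8 tested blood cell genes, where control replicate 1 had -0.05. The liver plasma protein list had -0.76 in control replicate 3 and -0.33 to 0.30 in the other 4. The part of these other cell types in the result was not tested.

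**Figure D2:**
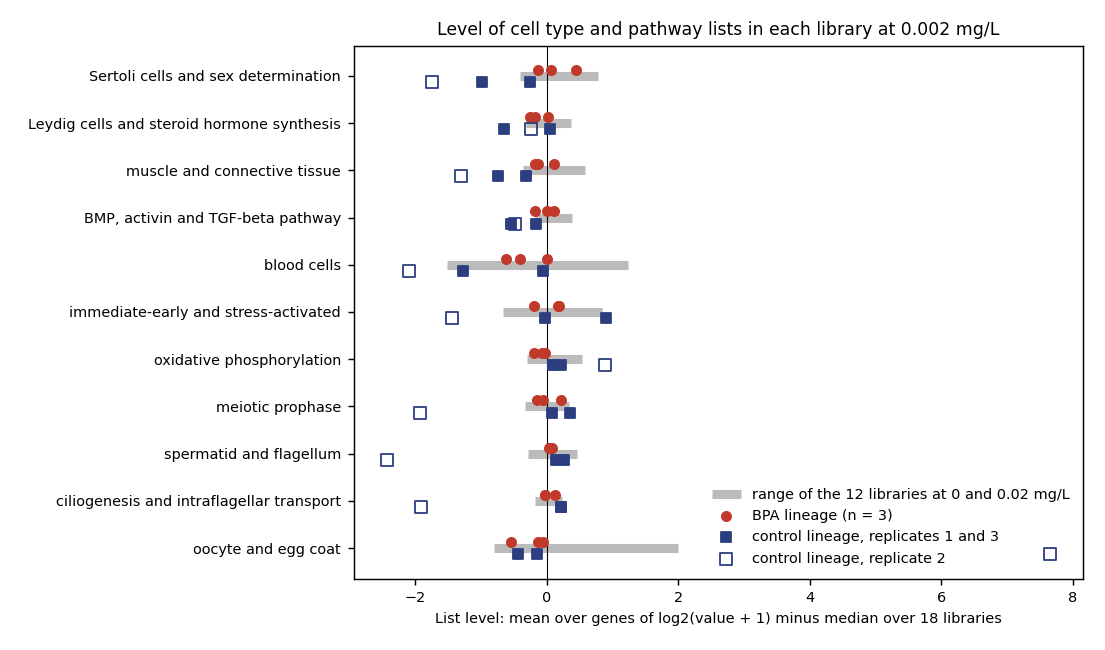
Level of 11 gene lists in each library at 0.002 mg/L, as the mean over genes of log2(value + 1) minus the median over 18 libraries, with grey bars for the range of the 12 libraries at the other doses. Control replicate 3 lies at the low end for Sertoli (-0.98), steroidogenic (-0.65) and muscle (-0.74) genes, and control replicate 2 lies at 7.65 for oocyte genes.

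Steroid hormone genes showed no common direction. Of 21 tested, 0 were called and the median log2 difference was -0.0011, with 10 positive. star, which carries cholesterol into the mitochondrion for steroid synthesis, had 1652, 774 and 1487 normalized reads in the BPA libraries against 1008 and 226, a log2 difference of 1.37 ± 0.72 (SE). AKR1D1, a steroid 5-beta reductase gene, had 434, 557 and 1078 against 446 and 233. hsd17b12b, of the 17-beta hydroxysteroid dehydrogenase family, leaned the other way at -0.47 ± 0.22 (SE). In the nuclear receptor list, 0 of 38 tested genes were called and the median was 0.18, with 10 genes (26.3%, beside 14.5% of all genes) above both controls in all BPA libraries and 7 (18.4%, beside 18.8%) below. nr2f1a, an orphan receptor gene, had 114, 85.3 and 125 against 49.9 and 25.1 and did not overlap between the lineages, at a log2 difference of 1.56 ± 0.48 (SE). The progesterone receptor gene pgr had 1688, 1952 and 2431 against 1700 and 398, so only control replicate 3 stood apart.

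Connective tissue genes had the largest share of members above both controls of the 36 lists. In the muscle and connective tissue list, 54 genes were tested, 0 were called and the median log2 difference was 0.46. The difference was positive for 38 of the 54 (70.4%, beside 47.6% of all genes) and not for the rest. All 3 BPA libraries lay above both controls for 21 of the 54 genes (38.9%, beside 14.5% of all genes), and below both for 1 (1.85%, beside 18.8%). The basement membrane collagen gene col18a1a had 349, 336 and 382 normalized reads against 94.2 and 103, and 47.3 in control replicate 2. Its BPA libraries were close to each other and above all 3 controls, with a log2 difference of 1.84 ± 0.54 (SE) and a limma adjusted p of 0.36. The fibrillar collagen gene col5a2a had 196, 241 and 173 against 115 and 36.0, a difference of 1.63 ± 0.41 (SE). fn1b, a fibronectin gene of the matrix, had 290, 408 and 634 against 220 and 117. The collagen gene COL14A1, described above and not a member of this list, leaned the other way at -3.63 ± 0.74 (SE). The list's level was -0.18, 0.12 and -0.13 in the BPA libraries and -0.32 and -0.74 in control replicates 1 and 3. Its median log2 difference was 0.27 without control replicate 3 and 0.79 without control replicate 1.

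Genes of the BMP, activin and TGF-beta pathway spread widely around a median of 0.07, with 0 of 66 tested genes called. The BPA libraries lay above both controls for 17 of them (25.8%, beside 14.5% of all genes) and below both for 7 (10.6%, beside 18.8%). bmpr1ba, a type I BMP receptor gene, had 159, 291 and 365 normalized reads against 120 and 101, and 83.7 in control replicate 2. The lineages did not overlap, and the log2 difference was 1.21 ± 0.34 (SE) at a limma adjusted p of 0.309 and a DESeq2 adjusted p of 0.0236. LTBP3, which tethers latent TGF-beta to the matrix, had 219, 375 and 531 against 194 and 63.6. The BMP antagonist gene chrdl2 had 137, 344 and 399 against 167 and 34.3, and overlapped. In the Wnt list 0 of 75 genes were called, with a median of 0.12. The Wnt receptor gene ror2 had 215, 286 and 241 against 111 and 59.5, but 250 in control replicate 2, inside the BPA range. The secreted Wnt inhibitor genes sfrp2 and frzb differed by 0.82 ± 0.28 and 1.16 ± 0.41 (SE). VANGL1 (ENSORLG00000003756), a planar polarity gene, differed by -0.67 ± 0.23 (SE) in the other direction. It is the entry with the smaller p of 2 named VANGL1.

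Immediate-early genes, which rise within minutes of a stimulus in many cells, had wide values in both lineages. Of 45 tested, 0 were called and the median log2 difference was -0.05. fosb had 896, 68.5 and 76.3 normalized reads in the BPA libraries against 2974 and 585 in the controls, and 33.8 in control replicate 2, the lowest value of the 6. Its log2 difference was -2.97 ± 1.01 (SE) without that library. jdp2b, a partner of the same transcription factor complex, had 261, 48.7 and 92.5 against 741 and 157. c-fos, chosen after its values were seen, had 2195, 2679 and 299 against 7982 and 2516, a log2 difference of -1.89 ± 1.37 (SE). The list's level was 0.90 in control replicate 1, the highest of the 17 libraries, and -0.03 in control replicate 3. Its median log2 difference was -0.55 without control replicate 3 and 0.15 without control replicate 1.

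The lists of meiotic, spermatid and cilia genes had negative medians in the 5 libraries. In the meiotic prophase list 0 of 21 genes were called, the median log2 difference was -0.19, and 4 (19.05%, beside 18.8% of all genes) lay below both controls in all BPA libraries. dmc1, the meiotic recombinase gene, had 10137, 7173 and 7882 normalized reads against 10680 and 16044, a difference of -0.66 ± 0.25 (SE). The cohesin gene rec8b had 3662, 2742 and 2841 against 3449 and 6216, and overlapped. In the spermatid and flagellum list 0 of 43 genes were called, the median was -0.20, and 18 lay below both controls (41.9%, beside 18.8% of all genes). gapdhs, the glycolytic enzyme gene of sperm, had 17195, 18033 and 17914 against 23155 and 30017, a difference of -0.57 ± 0.23 (SE). CFAP61 and cfap52, flagellum genes, differed by -0.48 ± 0.24 and -0.40 ± 0.21 (SE). The cilia and intraflagellar transport list had a median of -0.24 over 42 genes, with 22 below both controls (52.4%, beside 18.8% of all genes). Within it ift81 had 8301, 7199 and 6879 against 9727 and 10846. By the list measure above, the meiotic list stood at 0.22, -0.15 and -0.06 against 0.09 and 0.36, so it overlapped. The spermatid list stood at 0.09, 0.03 and 0.06 against 0.26 and 0.14. For the cilia list the levels were 0.13, -0.02 and -0.02 against 0.21 and 0.22. At 0.02 mg/L the median log2 differences of these lists were 0.11, -0.01 and -0.02, in the same order.

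At the spermatogonial stage 0 of 16 genes were called and the median was 0.10. upp1, a uridine phosphorylase gene, had 601, 1004 and 461 against 2472 and 7018, a log2 difference of -2.67 ± 0.68 (SE) with a limma adjusted p of 0.278 and a DESeq2 adjusted p of 0.00367. Control replicate 2 had 346, below every BPA library. id4, which marks spermatogonial stem cells in mice, had 45.7, 99 and 65.8 against 31.6 and 28.5. The germ cell helicase gene ddx4 had 29955, 33664 and 32312 against 39749 and 48316, a difference of -0.46 ± 0.23 (SE). Of the 86 cell cycle genes 0 were called, the median was -0.20, and 31 lay below both controls (36.0%, beside 18.8% of all genes). Within that list top2b, a DNA topoisomerase gene, and pkmyt1, a kinase that holds back entry into division, differed by -0.59 ± 0.22 and -0.50 ± 0.19 (SE), while cdca7a differed by 0.75 ± 0.27 (SE).

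Nuclear-encoded oxidative phosphorylation genes, which make up the mitochondrial respiratory chain, had a negative median without passing the test. Of 65 tested, 0 were called, 6 had a positive difference and the median log2 difference was -0.26. All 3 BPA libraries lay below both controls for 32 of the 65 (49.2%, beside 18.8% of all genes) and above both for 0 (beside 14.5%). sdhb, an iron-sulfur subunit of complex II, had 2146, 2149 and 2179 normalized reads against 2967 and 3063, and 8252 in control replicate 2. Its BPA libraries were nearly equal, and the log2 difference was -0.48 ± 0.17 (SE) at a limma adjusted p of 0.477. uqcrc1, of complex III, had 2829, 2784 and 2922 against 3653 and 4038. The list's median stayed between -0.35 and -0.19 when any 1 of the 5 libraries was left out, and it was -0.54 with control replicate 2 included. At 0 mg/L the median of the same list was 0.30, and at 0.02 mg/L it was -0.12.

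Mitochondrial ribosomal protein and proteasome genes had medians of -0.17 over 65 genes and -0.19 over 44, with 0 called in each. In the proteasome list 18 genes lay below both controls in all BPA libraries (40.9%, beside 18.8% of all genes) and 0 above (beside 14.5%). psmb7, a catalytic subunit gene of the proteasome, had 5441, 3819 and 6030 against 7706 and 7332. Cytosolic ribosomal protein genes had a median of 0.03 over 66 genes. Of 57 glycolysis and citric acid cycle genes 0 were called and the median was 0.01. aldocb, an aldolase gene, had 4838, 4910 and 4501 against 7019 and 8417, a difference of -0.70 ± 0.20 (SE). HK1 (ENSORLG00000000069), a hexokinase gene, leaned the other way at 0.82 ± 0.26 (SE). This is the entry with the smaller p of 2 named HK1. Cholesterol genes had a median of -0.11 over 38, with 13 below both controls (34.2%, beside 18.8% of all genes) and 6 above (15.8%, beside 14.5%). The cholesterol exporters abcg1 and abca1a differed by -1.04 ± 0.33 and -0.57 ± 0.20 (SE), and neither overlapped between the 3 BPA and 2 control libraries.

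Xenobiotic metabolism genes, which include the cytochrome P450 enzymes that oxidize foreign compounds, had a median of 0.16 over 38 tested genes with 0 called. cyp1c2, of the CYP1 family that the aryl hydrocarbon receptor controls, had 169, 235 and 139 normalized reads in the BPA libraries against 86.5 and 33.5, and 29.7 in control replicate 2. All BPA libraries lay above all controls, and the log2 difference was 1.70 ± 0.46 (SE) at a limma adjusted p of 0.297. aldh1a2, which makes retinoic acid, had 650, 400 and 503 against 452 and 175. The bile salt exporter gene abcb11b had 62.5, 44.9 and 49.5 against 27.4 and 14.2. DNA methylation and histone modifier genes had a median of -0.08 over 131 tested, with 0 called. prmt7, an arginine methyltransferase gene, had 568, 540 and 396 against 214 and 236, a log2 difference of 1.14 ± 0.29 (SE) and a DESeq2 adjusted p of 0.0235. Control replicate 2 had 5504, and with it the difference was -0.40. tet2, which oxidizes methylated cytosine, had 142, 130 and 152 against 72.4 and 56.1, and 17.6 in control replicate 2, with a difference of 1.13 ± 0.39 (SE).

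**Figure D3:**
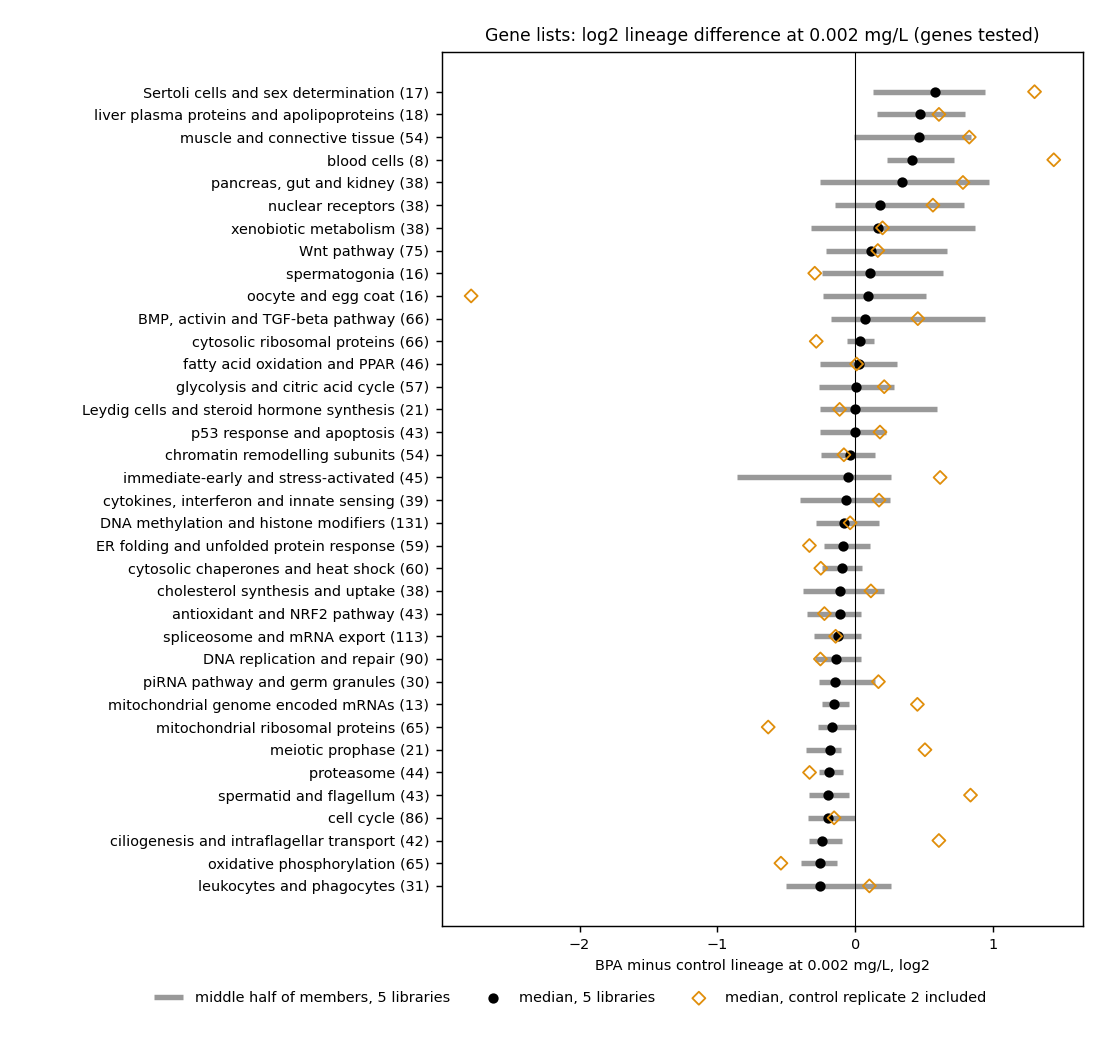
Median log2 difference, BPA minus control lineage at 0.002 mg/L, of each of 36 gene lists, with the number of genes tested in brackets. Black points are medians from 3 BPA and 2 control libraries with grey bars for the middle 50% of members, and open diamonds are medians with control replicate 2 included. The black points run from -0.26 (leukocytes and oxidative phosphorylation) to 0.58 (Sertoli), and the diamond of the oocyte list is at -2.79.

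With control replicate 2 included, limma again called 0 genes (0%) at 0.002 mg/L, with 2829 at an unadjusted p below 0.05 (15.1%) and a smallest adjusted p of 0.193. edgeR called 0 and DESeq2 804 (4.53%), of which 572 were lower in the BPA lineage. The median log2 difference of all genes moved from -0.02 to 0.14, and the median standard error from 0.38 to 0.49. All 3 BPA libraries lay above all 3 controls for 8.96% of genes and below them for 8.88%. Lists of germ cell genes had medians of the opposite sign. They were 0.84 for spermatid and flagellum, 0.61 for cilia and 0.51 for meiotic prophase genes, and -2.79 for oocyte genes. The Sertoli and connective tissue medians were again positive, at 1.30 and 0.83, while their list levels in control replicate 2 were -1.74 and -1.30. The part of oocyte RNA in these 18-library values was not tested.

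Without PFOS, the lineages of the same study differed at 1927 genes (10.3%), 806 higher and 1121 lower in the BPA lineage, in libraries that share none with the comparison at 0.002 mg/L. With all 18 libraries in the fit, that count was 4. The library this adds is not in the 0 mg/L contrast and enters only the shared estimate of the spread. A limma fit to the 2 groups at 0 mg/L alone called 1892 genes, and edgeR called 2061. Genes typical of pancreas, gut and kidney averaged 2.79, 0.89 and 1.73 in the 0 mg/L controls, by the list measure above. The BPA libraries at 0 mg/L had 0.37, 0.47 and 0.61. Liver plasma protein genes had 2.44, 0.91 and 0.20 in these controls and 0.09, 0.33 and 0.52 in those BPA libraries. The median log2 differences of these lists at 0 mg/L were -1.31 and -0.76. The part of such RNA in the 0 mg/L calls and in the comparison between doses was not tested. Of the 1927 genes, 567 (29.4%) had the same sign at 0.002 mg/L, where their median log2 difference in the direction seen at 0 mg/L was -0.18. At 0 mg/L, where they were chosen, it was 1.342. Of the same genes 108 had an unadjusted p below 0.05 at 0.002 mg/L, and 30 of these kept their sign. With control replicate 3 left out the number with the same sign was 891, with control replicate 1 left out it was 481, and with control replicate 2 put back it was 491. Over all 18792 genes, 41.4% had the same sign at 0 and 0.002 mg/L, and 64.5% at 0.02 and 0.002 mg/L. Of 274 genes with an unadjusted p below 0.05 at both PFOS doses, 265 had the same sign, while at 0 and 0.002 mg/L 105 of 364 did. At 0.02 mg/L limma called 4 genes (0.0213%).

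**Figure D4:**
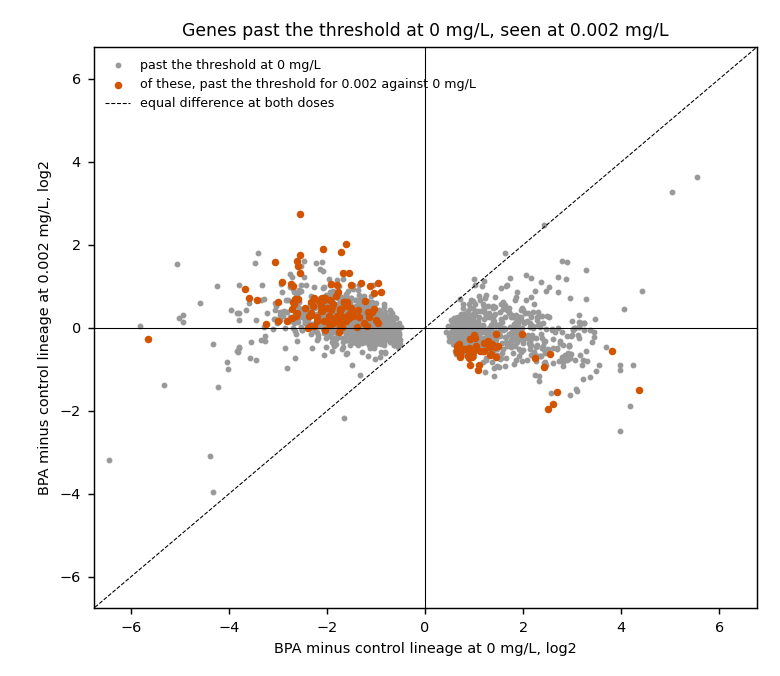
Log2 lineage difference at 0 mg/L (horizontal) and at 0.002 mg/L (vertical) of the 1927 genes past the threshold at 0 mg/L, from libraries the doses do not share. Orange points also passed the test of the difference between the doses, and the dashed line marks equal differences. Of the 1927 points, 567 have the same sign at both doses.

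The difference between the doses was tested itself. The lineage difference at 0.002 mg/L departed from that at 0 mg/L for 169 genes (0.899%) by limma, 117 of them in the positive direction, and from that at 0.02 mg/L for 0 genes (0%), where 690 had an unadjusted p below 0.05, edgeR called 0 and DESeq2 called 2. Of the 169 genes, 154 were among the 1927 called at 0 mg/L, which were 10.3% of all genes. The test takes in the same 0 mg/L libraries, so that overlap is in part built in. sumo4, of the family of small ubiquitin-like modifiers, had 207, 94.8 and 192 normalized reads in the BPA libraries without PFOS and 1375, 804 and 907 in the controls. At 0.002 mg/L the BPA libraries had 586, 496 and 357 and the controls 363 and 272, so the lineages stood apart at 0 mg/L and overlapped at 0.002 mg/L. The difference changed by 3.26 ± 0.52 (SE) on the log2 scale, at a limma adjusted p of 0.0266. rab24, a small GTPase gene of autophagy, had 600, 370 and 554 against 1697, 1819 and 1456 at 0 mg/L, and 794, 1047 and 1088 against 917 and 549 at 0.002 mg/L. tm9sf1, a membrane protein gene, had 948, 834 and 773 against 453, 526 and 574 at 0 mg/L, and 620, 613 and 668 against 977 and 1089 at 0.002 mg/L, so its lineages stood apart in opposite directions. The change was -1.42 ± 0.26 (SE), at a limma adjusted p of 0.0315.

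cyp1c2 was the only gene described by its list above that passed this test. It had 186, 69.5 and 195 normalized reads in the BPA libraries and 369, 247 and 329 in the controls at 0 mg/L, and at 0.002 mg/L the BPA libraries lay above the controls. The lineage difference changed by 2.88 ± 0.62 (SE), at a limma adjusted p of 0.0478. The count of 169 became 0 with all 18 libraries, 57 by edgeR and 1686 by DESeq2. It also became 0 when BPA replicate 1 or 2 of either dose or control replicate 1 of 0 mg/L was left out, 6 without BPA replicate 3 and 4 without control replicate 3 of 0.002 mg/L, and 52 without control replicate 3 of 0 mg/L. It was 440 without control replicate 1 of 0.002 mg/L, 539 without control replicate 2 of 0 mg/L and 1196 without BPA replicate 3 of 0 mg/L.

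**Figure D5:**
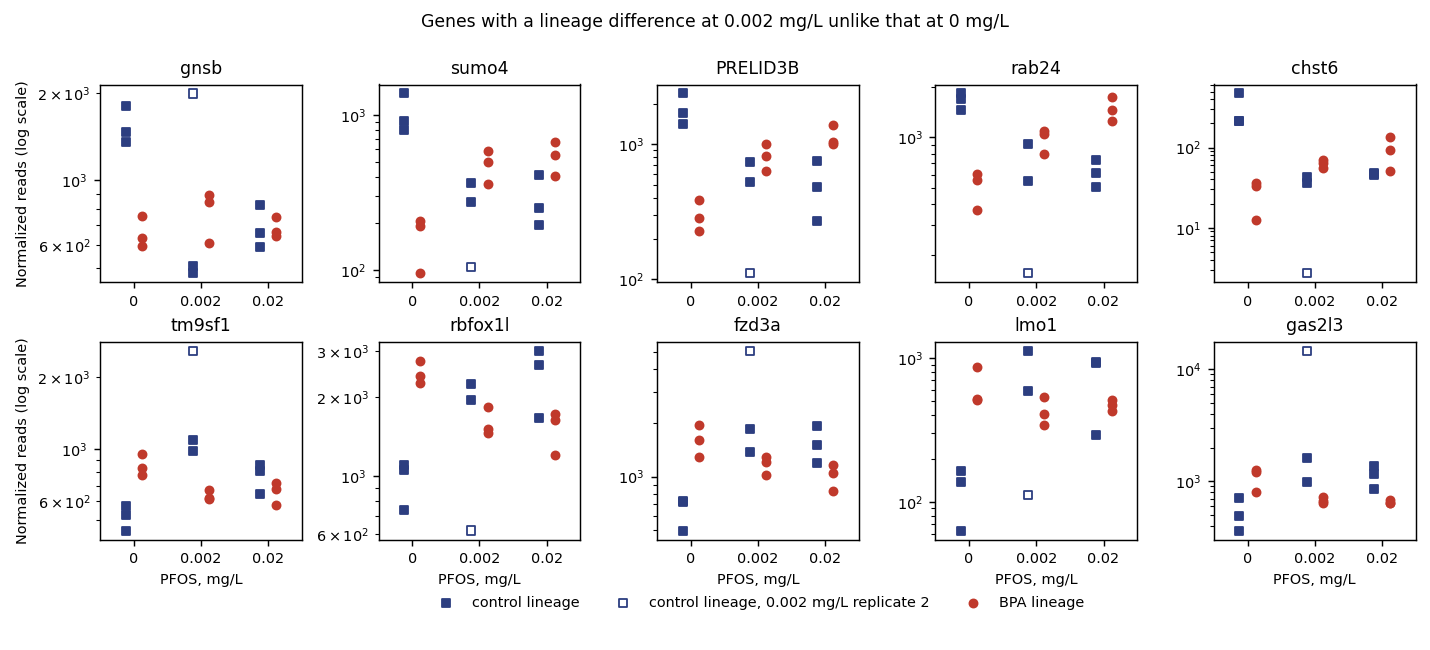
Normalized reads, on a log scale set for each panel, of 10 genes whose lineage difference at 0.002 mg/L differed from that at 0 mg/L, by PFOS dose. Circles are BPA lineage libraries, squares control lineage libraries, and the open square is control replicate 2 of 0.002 mg/L. In the top row the BPA lineage lies below the controls at 0 mg/L (sumo4, 94.8 to 207 against 804 to 1375) and overlaps or exceeds control replicates 1 and 3 at 0.002 mg/L, and in the bottom row it lies above the controls at 0 mg/L.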

How the data were processed

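RNA of 18 medaka testes libraries was extracted with a Zymo kit and made into libraries with a NEBNext Ultra II kit, per the labels' protocols. The submitters' processing notes name STAR 2.7.7a, DESeq2 1.34.0 and fastp 0.23.2. The build, annotation, read counter and strandedness are not stated in the labels or headers, so overlapping, antisense and near-identical genes are uncertain. The table deposited by the authors holds signal values, gene counts divided by 1 size factor per library. Within a tolerance of 0.01, 100% were whole multiples of 1 step, which gave back 23.7 to 47.7 M reads per library. The labels call the replicates biological.

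Of 22941 genes, 18792 with a mean of at least 10 were kept. limma 3.58.1 (R 4.3.3; trend, robust) modelled log2(value + 1) by 6 group means over 17 libraries, and over 18 second. Fold changes are on this scale, which understates low genes. Tests were two-sided, with Benjamini-Hochberg adjustment over all genes in each of 5 comparisons and a threshold of 0.05. edgeR 4.0.16 and DESeq2 1.42.0 used the recovered reads. The script was tested on simulated data.

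Fewer than 8 genes passed in each direction, so the 8 with the smallest p were named, among genes with a symbol and a mean of at least 50. Up to 4 members of a list were then named by p, from all genes with a mean of at least 10. Genes of the dose comparison are the 5 with the smallest p each way, with a symbol and a mean of at least 50, chosen after seeing the data. The comparison and the 36 lists were chosen with earlier results of these data known. The values of 1 gene are not reported here.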

Additional observations from a re-analysis of the deposited data

Results flagged for a closer look

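The lineage difference at 0.002 mg/L differed from that at 0 mg/L, by the interaction term of limma, for 169 genes. The 10 shown here were taken after seeing the data, as the 5 with the smallest p in each direction. The signed log2 difference, BPA minus control lineage, was negative at 0 mg/L for gnsb, sumo4, PRELID3B, rab24 and chst6 and positive but smaller in size at 0.002 mg/L. It moved up by 1.86 for gnsb, 3.26 for sumo4, 2.96 for PRELID3B (ENSORLG00000003731), 2.17 for rab24 and 4.10 for chst6. It went from positive at 0 mg/L to negative at 0.002 mg/L for the other 5, with changes of -1.42 for tm9sf1, -1.76 for rbfox1l, -1.76 for fzd3a, -3.38 for lmo1 and -1.999 for gas2l3. For cyp1c2, a CYP1 family gene, the change was 2.88. None of these 11 genes passed the limma test at 0.002 mg/L alone, and with control replicate 2 included 0 genes passed the interaction test in limma, where 4107 had an unadjusted p below 0.05.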

How the results depend on the processing

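At 0.002 mg/L, 0 genes higher and 0 lower in the BPA lineage held in limma with TMM scaling, a pseudocount of 5 or no filter. The same held with neither trend nor robust moderation, with all 18 libraries, and in edgeR. DESeq2 gave 71 and 35, the fit to the groups compared 18 and 11, and leaving out a replicate 0 to 55 and 0 to 2. With 18 libraries, DESeq2 gave 804 and leaving out a replicate 0 to 992. At 0 mg/L, 1927 became 4 with 18 libraries, 3337 by DESeq2 and 2061 by edgeR. It was 1892 in the fit to the groups compared and 180 to 2776 without a replicate. At 0.02 mg/L, 4 became 155 by DESeq2, 2 in the fit to the groups compared and 3 to 362 without a replicate. For 0.002 against 0 mg/L, 169 became 0 with 18 libraries, 1686 by DESeq2, 57 by edgeR and 90 with no filter. It became 0 with neither trend nor robust moderation and 0 to 1196 without a replicate. For 0.002 against 0.02 mg/L, 0 became 2 by DESeq2 and 0 to 1 without a replicate. The causes were not tested. Where 1 control library is left, it is assumed to vary like the other groups. Fits without trend and robust moderation and fits to the groups compared at other doses were chosen after seeing the data. So were DESeq2 and the block with 18 libraries, and leaving out replicates at other doses.

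Same-numbered libraries of the lineages deviated together (correlation across genes) at -0.0019, 0.064 and -0.012. Differently numbered ones ran from -0.071 to 0.073. The deviations were taken from group means that include control replicate 2, so this check cannot decide whether the numbers pair the libraries. With the replicate block, 0 genes were called at 0.002 mg/L, 1445 at 0 mg/L, 4 at 0.02 mg/L, and 7 for 0.002 against 0 mg/L.

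Of 89 named genes, 16 reversed with all 18 libraries and 0 under the other alternatives run. Their differences there were dmc1 0.063, rec8b 0.28, terb1 0.44, tex11 0.59, gapdhs 0.42, CFAP61 0.65, cfap52 0.81, ift81 0.49, abca1a 0.25, prmt7 -0.40, top2b 0.18, bmp15 -2.34, dmy 0.49, gnsb -0.029, rbfox1l 0.19 and lmo1 0.0019. Of 36 list medians, 29 moved with 18 libraries, 14 without control replicate 1 and 10 without control replicate 3.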

Other observations

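The gene lists not described above had no member past the limma threshold at 0.002 mg/L either, without control replicate 2. Leukocyte and phagocyte genes had a median log2 difference of -0.26 over 31 tested genes, with 3 (9.68%, beside 14.5% of all genes) above both controls in all BPA libraries and 4 (12.9%, beside 18.8%) below. mmp9, a matrix protease gene of granulocytes and other cells, leaned the other way, with 227, 528 and 505 normalized reads in the BPA libraries against 235 and 41.9 in control replicates 1 and 3. Cytokine, interferon and innate sensing genes had a median of -0.07 over 39. Within that list the chemokine gene ccl25b had 350, 599 and 300 against 216 and 168, and 115 in control replicate 2, so its lineages did not overlap. Its log2 difference was 1.06 ± 0.36 (SE), at a limma adjusted p of 0.477.

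Transcripts typical of pancreas, gut and kidney had a median of 0.34 over 38 genes, and liver plasma proteins and apolipoproteins one of 0.47 over 18. Without control replicate 3 these medians were -0.087 and 0.11. In the 8 blood cell genes the median was 0.41. Genes of chromatin remodelling complexes had a median of -0.04 over 54, while bcl11aa, named after a BAF-associated transcription factor, had 40.4, 43.4 and 40.4 against 4.92 and 16.7. Its log2 difference was 2.05 ± 0.57 (SE), at a limma adjusted p of 0.309. cyp2n13 (ENSORLG00000014891), the entry with the smaller p of 2 of that name, had 21.3, 35 and 27.4 normalized reads in the BPA libraries. Control replicate 1 had 12.7, and control replicate 3 was at 0.

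The remaining lists are given by their medians, beside -0.02 over all genes. They were -0.14 over 90 DNA replication and repair genes, -0.0046 over 43 p53 and apoptosis genes, -0.12 over 113 spliceosome genes, -0.09 over 59 endoplasmic reticulum folding genes and -0.09 over 60 cytosolic chaperones. All 3 BPA libraries lay below both controls for 31.0% of the spliceosome genes and 27.8% of the replication and repair genes, beside 18.8% of all genes, and above both for 2.65% and 6.67%, beside 14.5%. The piRNA list had -0.15 over 30, the antioxidant list -0.11 over 43, fatty acid oxidation 0.03 over 46, and the mRNAs encoded by the mitochondrial genome -0.15 over 13. With control replicate 2 included, the mitochondrial mRNAs had a median of 0.45 and the piRNA list 0.17.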
